A study of Rattus norvegicus with 154 samples.

Results

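The comparison described here is that of 6 mg against 3 mg of sulfur mustard in rat lung 6 h after exposure. Its members were found by the labels alone: 3 animals labelled 6 mg at 6 h and 3 animals labelled 3 mg at 6 h, which are 6 of the 77 animals of the series. Sulfur mustard, bis-(2-chloroethyl) sulfide, is an alkylating chemical warfare agent. Total lung RNA of rats given 0, 1, 3 or 6 mg was hybridised to Affymetrix RAE230A arrays, with 2 chips per animal and lungs taken after times up to 24 h. All animals of the dose groups used here had received the agent in isopropyl alcohol, and the 3 controls at 6 h had received isopropyl alcohol alone. The series also held animals given saline without the agent, which entered the fit over all groups. The labels gave the dose in mg with no body weight, and strain, age, sex and route were not given in the sources used here. Animals carried separate numbers in the labels, so an animal was 1 replicate and the mean of its 2 chips on the log2 scale was its value.

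Sulfur mustard attaches to guanine bases and crosslinks the DNA strands, and such lesions block replication forks and elongating RNA polymerase. It also reacts with glutathione and with protein thiols. Cells answer such damage through p53, which induces genes of cell cycle arrest, through the Nrf2 factor, which induces genes of glutathione synthesis and thiol repair, and through kinases that converge on the stress factor Atf3. In the lung the agent is known for injury of airway epithelium, leak of vessels, clotting in the airways and inflammation.

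The question of the comparison was which transcripts differed between the 2 higher doses at a time when both had acted for 6 h. The deposited values were linear intensities in arbitrary units, and differences are given on the scale of log2(intensity + 7), which understates the change of genes at low levels. The limma p-values rest on a spread per probe set shared over all 77 animals of the 25 groups, not on these 6 animals alone. Array medians lay between 73.2 and 78.1 on the 6 mg arrays and between 78.4 and 81.3 on the 3 mg arrays. Lung genes were abundant in both groups: Sftpc, which encodes surfactant protein C, lay between 6245 and 11262 in the 6 mg animals and between 4698 and 6516 in the 3 mg animals, and Ager, an alveolar type I cell gene, between 2040.2 and 2347 and between 2299 and 2518. Sums over the 2 measured liver markers lay between 80.0 and 101 at 6 mg and between 79.0 and 103 at 3 mg. Sums over the 5 measured skeletal muscle markers lay between 589 and 1924 at 6 mg and between 415 and 603 at 3 mg, and 6 mg replicate 3 held the highest level of 1 of them, Atp2a1, at 241 against 45.7 and 55.0 in the other 6 mg animals.

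The 6 animals did not share scan days evenly. All 3 of the 6 mg animals and 3 mg replicate 3 were scanned on days 9 and 10 of 17, 3 mg replicate 1 on days 11 and 12, and 3 mg replicate 2 on days 3 and 7. The file of chip A of 3 mg replicate 1 carried a remark on a probe regenerated after a calculation error. The file of chip A of 6 mg replicate 3 carried a rescan remark naming the chip of 3 mg replicate 3, but its values correlated more with its own chip B (r = 0.972 across probe sets) than with any other chip B of that time (0.964 at most). The log2 ratio of 3′ to 5′ probe sets of beta-actin, which rises as RNA degrades, was 0.36, 0.67 and 1.56 in the 3 mg animals and 1.33, 1.80 and 1.79 in the 6 mg animals. The groups overlapped, and a two-sided exact permutation test gave p = 0.2, where the smallest p that 3 against 3 animals allow is 0.1. For GAPDH the log2 ratio was 0.31, 0.80 and 1.00 at 3 mg and 0.71, 0.91 and 1.19 at 6 mg (two-sided exact permutation test, p = 0.5), again with overlap. In both ratios 3 mg replicate 1 was the lowest of the 6 animals.

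Of 11106 probe sets tested, 479 differed between 6 mg and 3 mg, which is 4.31% of them (limma, Benjamini-Hochberg adjusted p under 0.05). The 119 that were higher at 6 mg were 1.07% and the 360 that were lower were 3.24%. With each array centred on its own median 174 were higher and 245 lower, so the share that was higher moved from 24.8% to 41.5%. The changes were of moderate size, with a median log2 difference of 0.62 among those higher and -0.65 among those lower, and 49 of the 479 changed by more than 1 on the log2 scale. The median over all probe sets was -0.03. The 6 mg and 3 mg animals did not overlap in 439 of the 479, beside 24.5% of all probe sets tested. In terms of genes, each taken by its brightest probe set, 83 were higher and 265 lower, and in 81 and 236 of these the animals did not overlap.

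The size of these counts rested on the model and on single animals. Only 89 probe sets (21 higher and 68 lower) passed within the pair of scan days that held both groups, 3 animals of 6 mg against 3 mg replicate 3. With the pair of scan days as a block 98 were higher and 414 lower, and 355 of the 479 passed again in the same direction. The count was 39 with only the 6 h groups in the fit and 0 with only these 6 animals, where limma still gave 2086 probe sets an unadjusted p under 0.05, beside 2076 in the fit over all groups. Leaving out an animal gave 456, 129 and 252 probe sets without 6 mg replicates 1, 2 and 3, and 683, 109 and 166 without 3 mg replicates 1, 2 and 3. Of the 360 probe sets that were lower at 6 mg, 3 mg replicate 1 was the lowest of its group in 269, and of the 119 that were higher it was the highest of its group in 78. Set against the isopropyl alcohol mean, the median log2 level over those 360 was -0.42, -0.10 and -0.10 in 3 mg replicates 1, 2 and 3 and -0.74, -0.95 and -0.84 in 6 mg replicates 1, 2 and 3. These medians describe probe sets chosen by the same contrast and were not tested.

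The largest named rise was that of Atf3, a stress-induced transcription factor of the integrated stress response. In order of replicate its intensity was 96.2, 94.0 and 54.0 in the 3 mg animals and 275, 332 and 349 in the 6 mg animals, and it was 51.3, 64.2 and 42.4 at 1 mg and 30.6, 28.6 and 35.1 in isopropyl alcohol. Every 6 mg animal lay above every other animal, and the 3 mg animals above all 3 controls. Atf3 rose 3.73-fold from 3 mg to 6 mg, a log2 difference of 1.90 ± 0.46 (SE, adjusted p = 0.00969). Against the isopropyl alcohol animals, which both comparisons share, the log2 difference was 3.06 at 6 mg and 1.16 at 3 mg. Of the 16 measured integrated stress response genes 1 passed, Atf3 (6.25%, beside 1.07% of all probe sets higher), and the median of the list was 0.17.

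Genes of glutathione synthesis and thiol repair were among the rises. Of 17 measured Nrf2 antioxidant genes 3 rose and none fell, against 1.07% of all probe sets higher, and the list median was 0.36 beside -0.03 over all probe sets. That median was 0.17 without 3 mg replicate 3, 0.23 with quantile normalization and 0.55 within the pair of scan days that held both groups. The list was chosen with earlier results of these data known, so its share of rises was no independent test. Srxn1 encodes sulfiredoxin, which restores over-oxidised peroxiredoxins. It stood at 273, 69.5 and 63.1 in the 3 mg animals and 276, 472 and 379 in the 6 mg animals. The groups were set apart only narrowly, since 3 mg replicate 1 lay just under 6 mg replicate 1, while the other 3 mg animals were far lower. Srxn1 rose 3.23-fold (1.69 ± 0.52, SE, adjusted p = 0.0452). Its isopropyl alcohol animals were themselves spread, at 176, 36.0 and 94.8, and the call was lost with quantile normalization (1.65, adjusted p = 0.0589).

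Gclc and Gclm encode the catalytic and the modifier subunit of glutamate-cysteine ligase, the first enzyme of glutathione synthesis, and both rose. Gclc was at 258, 131 and 149 in the 3 mg animals and 313, 348 and 308 in the 6 mg animals. Again 3 mg replicate 1 was nearest to the 6 mg group. Gclc rose 1.85-fold (0.89 ± 0.16, SE, adjusted p = 0.000221) and kept its call with each of the 6 animals left out, whereas its other probe set stood at 0.23 (adjusted p = 0.829). Gclm was at 142, 119.5 and 136 at 3 mg and 210.2, 214 and 229 at 6 mg, a rise of 1.61-fold (0.69 ± 0.16, SE, adjusted p = 0.00473). The 3 mg animals for this gene lay close to each other and none reached the 6 mg range. The 14 other measured members did not pass. Hmox1, which encodes haem oxygenase, was at 405, 519 and 326 and 604, 706 and 635 without overlap (0.65 ± 0.28, SE, adjusted p = 0.182). Nqo1, a quinone reductase gene, was at 1092, 627 and 482 and 933, 887 and 916, with overlap (0.40 ± 0.19, SE, adjusted p = 0.245). Hmox1 and Nqo1 were picked for mention after their values were seen.

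Nrf2 binds antioxidant response elements, whose core is written here as TGACNNNGC or TGAGNNNGC. The promoters of Srxn1 and Gclm are shown because both genes rose and both windows hold such a match on either strand, in capitals. They come from RefSeq on GRCr8, both on the plus strand, at chr3:161064654-161064815 for Srxn1 and chr2:213031923-213032011 for Gclm.
Srxn1: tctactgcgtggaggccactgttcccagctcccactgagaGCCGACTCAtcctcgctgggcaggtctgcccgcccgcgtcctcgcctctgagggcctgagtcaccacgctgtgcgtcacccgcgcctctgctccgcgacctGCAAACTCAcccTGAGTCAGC
Gclm: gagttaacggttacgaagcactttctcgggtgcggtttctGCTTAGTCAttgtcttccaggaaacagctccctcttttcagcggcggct
Srxn1 holds 3 matches of TGAGNNNGC, which begin 118, 17 and 5 bases before the annotated start, and Gclm holds 1 match of TGACNNNGC, 172 bases before it. The last match in Srxn1 overlaps an AP-1 site (TGACTCA, read on the other strand). The window of 250 bases before to 50 after the start of Gclc holds neither form. Among all 33469 promoters of that length 12.1% hold TGACNNNGC, 17.2% hold TGAGNNNGC and 4.63% hold TGACTCA. Of the 15 genes with the largest rises 12 had a promoter in the table. Of these 1 holds the first form (Zfand2a), 3 the second (Srxn1, Il1a and Cyp51) and 3 the AP-1 site (Srxn1, Il1a and Zfand2a). The matches are a description of letters and no site was tested.

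Some genes of the control of clotting and of fibrinolysis rose as well. Of 13 measured coagulation and fibrinolysis genes 3 rose and none fell, beside 1.07% of all probe sets higher, with a list median of 0.29. The other measured members did not pass, and 9 of the 13 lay above 0. This list, too, was chosen with earlier results of these data known. The median was 0.14 with quantile normalization, 0.15 with the pair of scan days as a block, 0.18 with the beta-actin ratio as a covariate and 0.13 with the lowest 50% of probe sets left out. Serpind1 encodes heparin cofactor II, a plasma inhibitor of thrombin made mainly in liver. It was at 89.7, 58.4 and 55.1 in the 3 mg animals and 169.8, 270.1 and 163 in the 6 mg animals. The 1 mg animals, at 56.6, 47.5 and 46.0, and the isopropyl alcohol animals, at 48.6, 43.5 and 52.0, lay near 3 mg replicates 2 and 3, and 3 mg replicate 1 between them and the 6 mg animals. Serpind1 rose 2.80-fold (1.49 ± 0.26, SE, adjusted p = 0.000188), a call kept with each animal left out. Procr, the endothelial receptor of protein C, was at 74.5, 102 and 104 and 126, 183 and 162 and rose 1.63-fold (0.70 ± 0.19, SE, adjusted p = 0.0241). Plat, the gene of tissue plasminogen activator, was at 619.6, 637 and 449 and 697, 869 and 769 and rose 1.38-fold (0.46 ± 0.14, SE, adjusted p = 0.0355). Both were higher in every 6 mg animal than in any 3 mg animal. Plat stood at 0.30 without 3 mg replicate 3 and at 0.78 within the pair of scan days that held both groups, and it lost its call in both, as it did with quantile normalization (adjusted p = 0.0936). The 2 measured platelet markers, Pf4 and Itga2b, summed to between 328 and 396 at 6 mg and between 240 and 287 at 3 mg, and their part in these values was not tested.

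Adamts1, which encodes a secreted metalloproteinase that cleaves proteoglycans, was at 468, 367 and 313 in the 3 mg animals and 799.8, 1021 and 937 in the 6 mg animals. It rose 2.39-fold (1.26 ± 0.24, SE, adjusted p = 0.000552) with no overlap of the groups, as the choice of genes required. Esm1 encodes endocan, a proteoglycan of endothelial cells. It was at 80.7, 45.9 and 44.1 at 3 mg and 122, 134 and 149 at 6 mg and rose 2.29-fold (1.20 ± 0.32, SE, adjusted p = 0.0182). The isopropyl alcohol animals were at 58.2, 46.9 and 120.5, so the highest of them lay just under the lowest 6 mg animal. Il1a, the gene of interleukin-1 alpha, an alarm cytokine released by damaged cells, was at 85.6, 122 and 87.8 at 3 mg and 234, 234 and 199 at 6 mg. Il1a rose 2.19-fold (1.13 ± 0.29, SE, adjusted p = 0.0143). The second probe set of Il1a did not pass, at 0.37 (adjusted p = 0.573). Of 18 measured chemokine, cytokine and NF-kB response genes Il1a was the 1 that passed, beside 1.07% of all probe sets higher. Il33, an alarm cytokine stored in nuclei, went the other way, from 425, 559 and 521 to 346, 309.8 and 371, a fall of 1.45-fold (-0.54 ± 0.13, SE, adjusted p = 0.00773). A second probe set of Il33 stood at -0.68 (adjusted p = 0.0398).

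Zfand2a, a zinc finger protein gene induced by arsenite that acts with the proteasome, was at 175, 101 and 114 in the 3 mg animals and 216, 221 and 345 in the 6 mg animals. Among them 6 mg replicate 3 was well above the rest. Zfand2a rose 1.95-fold (0.97 ± 0.23, SE, adjusted p = 0.00881). Hspa5, the main chaperone of the endoplasmic reticulum, was at 878, 714 and 732 and 1169, 1463 and 1087 and rose 1.60-fold (0.67 ± 0.19, SE, adjusted p = 0.0267). It was 1 of 17 measured chaperone genes of that compartment to pass (5.88%, beside 4.31% of all probe sets called and 1.07% higher). The list median was 0.18, and 0.08 with the pair of scan days as a block. Hspa5 lost its call with the block (adjusted p = 0.0939) and with the beta-actin ratio as a covariate (adjusted p = 0.0616). Dnajb4, a cytosolic co-chaperone, was at 310.4, 265 and 275 and 392, 579 and 443 and rose 1.63-fold (0.71 ± 0.19, SE, adjusted p = 0.0188). It was 1 of 16 measured cytosolic chaperone genes to pass (6.25%, beside the same 4.31% and 1.07%). The median of that list was 0.13 at 6 h, 0.02 with the block and 0.04 without 3 mg replicate 1, and the same 2 doses at 3 h gave a list median of 1.02.

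The promoters of Hspa5 and Zfand2a are shown because both genes rose and both windows hold the element known for endoplasmic reticulum stress, CCAAT and CCACG with 9 bases between them, searched on both strands and shown in capitals. Of all promoters of that length 0.0657%, 22 of 33469, hold it. Both are shown because of the match: of the 12 largest rises with a listed promoter only Zfand2a holds it, and Hspa5 is not among the 15 largest rises. They come from RefSeq on GRCr8, both on the plus strand, at chr3:38452933-38453015 for Hspa5 and chr12:20275240-20275338 for Zfand2a, where the match reads on the other strand.
Hspa5: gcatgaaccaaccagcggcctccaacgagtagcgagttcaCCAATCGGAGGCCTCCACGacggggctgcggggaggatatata
Zfand2a: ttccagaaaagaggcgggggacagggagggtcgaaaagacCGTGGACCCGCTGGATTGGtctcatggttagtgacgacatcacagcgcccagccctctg
The match begins 43 bases before the start of Hspa5 and 170 bases before that of Zfand2a. A heat shock element (GAA, TTC and GAA, each 2 bases apart) was in neither window and in 0.798% of all, and a cAMP response element (TGACGTCA) was in neither window and in 1.83% of all.

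The remaining genes among the 15 largest rises include genes of chromatin, transcription, mRNA deadenylation, lipid synthesis and mitochondria. Hexim1 encodes an inhibitor of the elongation kinase P-TEFb, and Med21 a subunit of Mediator. Hexim1 was at 387, 427 and 478 in the 3 mg animals and 590.2, 919 and 839 in the 6 mg animals (0.83 ± 0.24, SE, adjusted p = 0.0352). Med21 was at 59.0, 46.7 and 61.0 and 95.3, 108 and 110.2 (0.84 ± 0.20, SE, adjusted p = 0.00822). Tob1, an antiproliferative gene that acts in mRNA deadenylation, was at 288, 247 and 364 and 440.5, 643 and 565 (0.86 ± 0.24, SE, adjusted p = 0.025). In all 3 the 6 mg animals lay above the 3 mg animals, as the choice of genes required. For Hexim1 and Tob1 6 mg replicate 1 was the nearest to the 3 mg animals. H2ax, the histone variant phosphorylated at DNA breaks, was at 79.2, 86.5 and 123 and 139, 204 and 263 (0.99 ± 0.27, SE, adjusted p = 0.0249), and with the pair of scan days as a block the difference was 0.62 (adjusted p = 0.161). The 1 mg animals of H2ax, at 157, 112 and 136, overlapped both groups.

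Coq10b, which encodes a coenzyme Q binding protein of mitochondria, was at 238, 248 and 219 in the 3 mg animals and 398, 517 and 556 in the 6 mg animals. It rose 2.04-fold (1.03 ± 0.21, SE, adjusted p = 0.00133) and kept its call with each animal left out. Cyp51, an enzyme of cholesterol synthesis, was at 136, 159.8 and 181 and 281, 316 and 274 and rose 1.80-fold (0.85 ± 0.23, SE, adjusted p = 0.0234), with its other probe set at 0.47 (adjusted p = 0.143). It was the 1 of 13 measured sterol synthesis genes that passed, beside 1.07% of all probe sets higher. Lysmd3, a gene of a membrane protein with a LysM domain, was at 114, 124 and 129.8 and 218, 206 and 249 and rose 1.79-fold (0.84 ± 0.19, SE, adjusted p = 0.00519). The 3 mg animals of Lysmd3 lay on either side of those of isopropyl alcohol, at 122, 128 and 125. The DNA repair gene Apex1, which encodes the endonuclease at abasic sites, was at 216, 160.2 and 154 and 221, 246 and 258 (0.44 ± 0.13, SE, adjusted p = 0.0355). It was the 1 of 19 measured DNA repair genes that passed (5.26%, beside 4.31% of all probe sets called and 1.07% higher). The median of that list was -0.05, with 6 of 19 above 0.

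**Figure D1:**
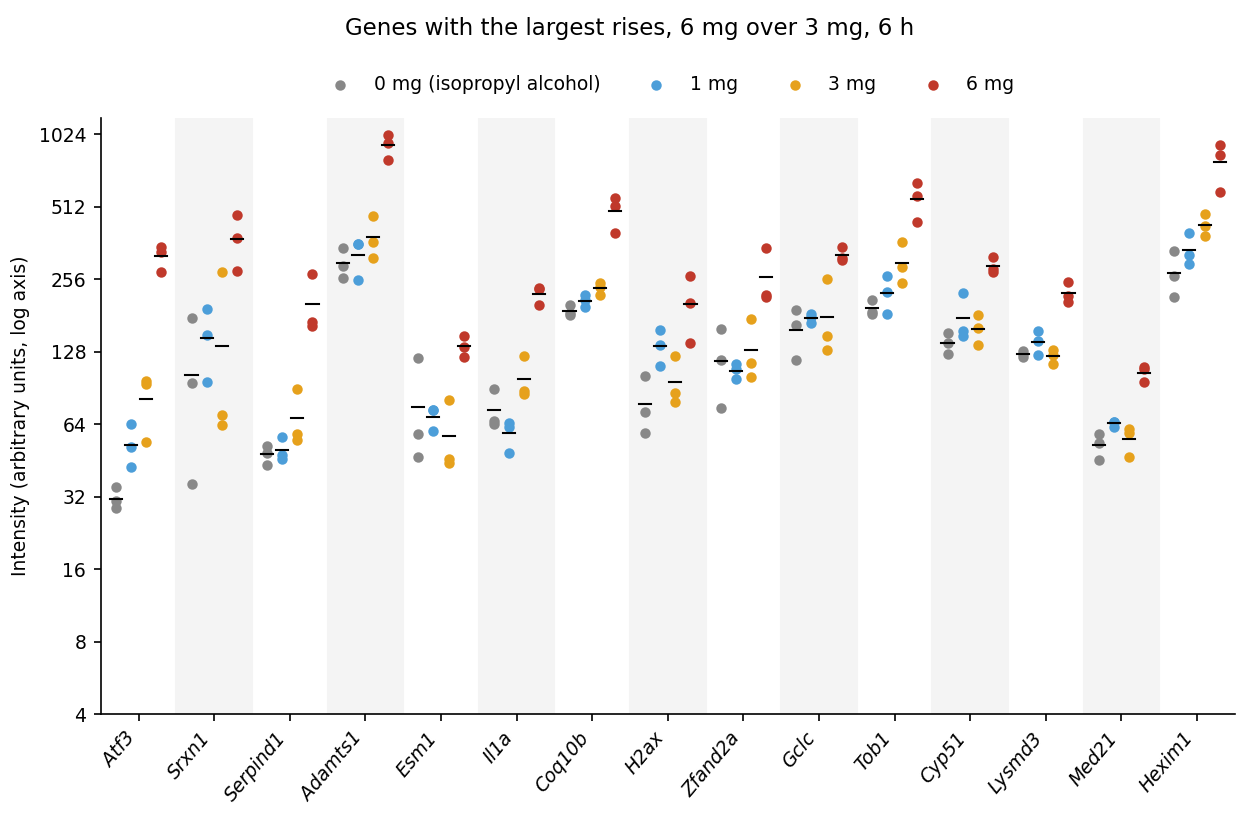
Intensity on a log axis in each animal at 6 h for the 15 genes with the largest rises, with points for animals and a bar for the mean of each dose group of 3 animals. In every gene the 6 mg animals lie above the 3 mg animals, as the choice of genes required. The gap is narrowest for Srxn1, where 3 mg replicate 1 comes near 6 mg replicate 1.

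Leaving out an animal ended many of these calls. Of the 15 rises 5 passed in all 6 such fits (Serpind1, Adamts1, Coq10b, Gclc and Lysmd3). Without 6 mg replicate 2 the calls of Atf3, Srxn1, Esm1, Il1a, H2ax, Tob1, Cyp51, Med21 and Hexim1 were lost, at log2 differences between 0.71 and 1.88. Without 6 mg replicate 3 those of Srxn1, Esm1, H2ax, Zfand2a, Tob1, Cyp51 and Hexim1 were lost (0.75 to 1.66). Without 3 mg replicate 1 those of H2ax, Cyp51 and Hexim1 were lost (0.74 to 0.87), without 3 mg replicate 2 those of Srxn1, Esm1, H2ax, Zfand2a, Tob1, Cyp51, Med21 and Hexim1 (0.73 to 1.40), and without 3 mg replicate 3 those of Atf3, Srxn1, Esm1, Il1a, Zfand2a and Hexim1 (0.90 to 1.65). Every one of the 15 kept its direction in those fits. The choice of genes without overlap between the groups all but fixed that outcome beforehand. With the pair of scan days as a block 11 of the 15 passed, and Tob1 (0.75, adjusted p = 0.0519), Cyp51 (0.61, adjusted p = 0.092) and Hexim1 (0.66, adjusted p = 0.0773) lost their calls beside H2ax. With the beta-actin ratio as a covariate H2ax (adjusted p = 0.0553), Cyp51 (adjusted p = 0.0527) and Hexim1 (adjusted p = 0.0755) lost theirs, and with quantile normalization Hexim1 did (adjusted p = 0.0619) beside Srxn1. Within the pair of scan days that held both groups all 15 were higher at 6 mg. The choice of genes without overlap all but fixed this direction too. With 3 mg replicate 3 alone at that dose, H2ax stood at 0.62 and Tob1 at 0.57.

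In several programmes known to answer DNA damage and stress no gene passed between the doses. None of the 10 measured p53 target genes passed, beside 4.31% of all probe sets called. At that share so short a list may well hold no call, so the count does not set the list apart. The list median was 0.31, with 8 of 10 above 0, and it was 0.15 without 3 mg replicate 3 and 0.20 without 6 mg replicate 2. Cdkn1a, the gene of the cyclin kinase inhibitor p21, was at 706, 1313 and 556 in the 3 mg animals and 1418, 937 and 1858 in the 6 mg animals, against 355, 159.6 and 229.8 in isopropyl alcohol. Ccng1, the gene of cyclin G, was at 762, 952 and 1059 and 993, 1749 and 1264 against 235, 238 and 246 in isopropyl alcohol. Both doses lay above all controls for these 2 genes, and the doses overlapped. The log2 difference of 6 mg from 3 mg was 0.75 ± 0.40 (SE, adjusted p = 0.308) for Cdkn1a and 0.51 ± 0.20 (SE, adjusted p = 0.151) for Ccng1. Mdm2, the ubiquitin ligase of p53, was at 0.36 with an SE of 0.29 (adjusted p = 0.545), and Plk2, the member with the smallest p, at 0.56 ± 0.19 (SE, adjusted p = 0.0845). Against the shared isopropyl alcohol animals Cdkn1a stood at 2.49 with 6 mg and 1.74 with 3 mg, and Ccng1 at 2.41 and 1.90. A p that misses the threshold does not show that the doses were equal. Cdkn1a, Ccng1 and Mdm2 were picked for mention after their values were seen.

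No member passed among 20 immediate early genes (median 0.27), 13 glucocorticoid-induced genes (0.32), 11 interferon-induced genes (-0.33), 18 cell cycle genes (0.03), 27 proteasome subunit genes (0.15) and 38 respiratory chain genes (0.10), beside 4.31% of all probe sets called. At that share lists of such length can hold no call. The interferon median was -0.15 without 3 mg replicate 2 and -0.50 without 3 mg replicate 3. The immediate early median was 0.06 with array weights. The glucocorticoid median was 0.16 with quantile normalization, 0.18 with the block and 0.185 without 3 mg replicate 2. All 28 measured ribosomal protein genes lay above 0, between 0.15 and 0.56 with a median of 0.33, and none passed. Rpl26, with the smallest p, was at 2323, 2097 and 2779 and 3255, 3747 and 3573 (0.56 ± 0.18, SE, adjusted p = 0.0576). Their median was 0.04 with quantile normalization, so that the height of the list depended on the scaling. Mt2A, a metallothionein gene of metal and oxidant defence, was at 859.7, 749.9 and 635 and 1183, 1685 and 1956 without overlap and did not pass (1.08 ± 0.38, SE, adjusted p = 0.0964). Cyp1a1, the detoxification enzyme induced through the Ahr receptor, was at 612, 92.7 and 136 in the 3 mg animals, of which replicate 1 stood far above the rest, and at 83.8, 46.5 and 88.8 in the 6 mg animals. Its log2 difference was -1.42 ± 0.53 (SE, adjusted p = 0.116), and it was -0.63 without 3 mg replicate 1.

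**Figure D2:**
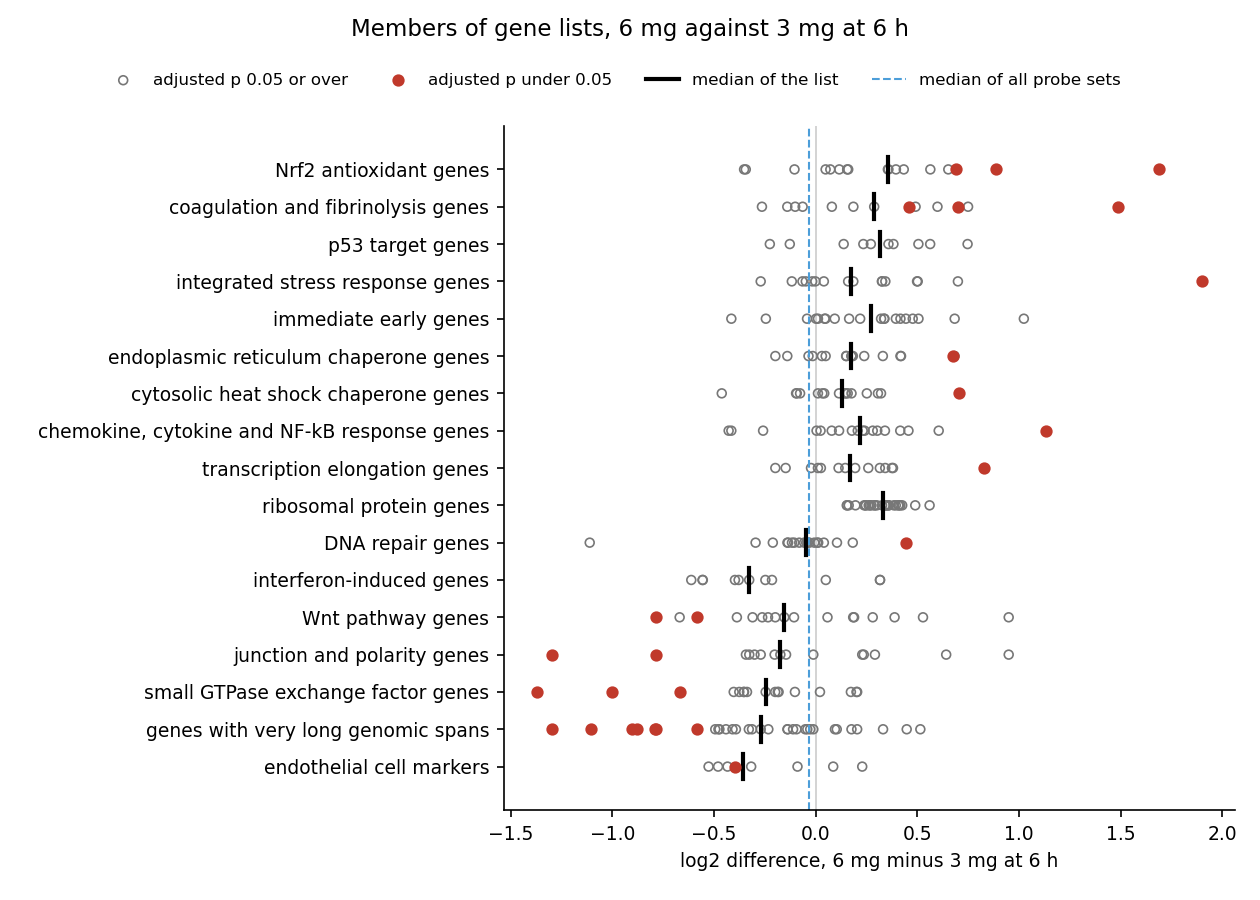
Log2 difference of 6 mg minus 3 mg at 6 h for each measured member of 17 gene lists, with filled points for an adjusted p under 0.05, a bar for the list's median and a dashed line for the median of all probe sets at -0.03. The 3 filled points of the Nrf2 and of the coagulation list lie to the right, and those of the exchange factors and of the very long genes to the left.

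Several lists held members that fell, those of junction and polarity genes, of exchange factors and of very long genes among them. The lists were chosen with earlier results of these data known, so the shares below describe the lists and were not tested. Pard3 and Magi3 were on both the junction list and that of very long genes. Pard3 encodes a scaffold of the polarity complex at tight junctions. It was at 32.05, 61.7 and 59.95 in the 3 mg animals and 23.6, 7.30 and 21.8 in the 6 mg animals, against 145, 112 and 117 in isopropyl alcohol. The 3 mg animals lay under all controls and the 6 mg animals under all 3 mg animals, with 6 mg replicate 2 close to the offset of 7. Pard3 fell 2.45-fold (-1.29 ± 0.24, SE, adjusted p = 0.000467), a size that the offset understates at such low levels. Magi3, a junction scaffold, was at 203, 235 and 285 and 142, 153 and 116 and fell 1.72-fold (-0.78 ± 0.20, SE, adjusted p = 0.0116), with its other probe set at -0.42 (adjusted p = 0.06). These were the 2 of 15 measured junction and polarity genes that fell, beside 3.24% of all probe sets, and the list median was -0.17, or -0.10 with the pair of scan days as a block.

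Dock9, which encodes an exchange factor that activates Cdc42, was at 157, 316 and 447 in the 3 mg animals and 115, 106 and 98.2 in the 6 mg animals. The isopropyl alcohol animals were at 419.9, 517 and 423, so 3 mg replicate 3 lay among the controls, while replicate 1 lay near the 6 mg group. Dock9 fell 2.58-fold (-1.37 ± 0.18, SE, adjusted p = 6.69e-06), while its other probe set stood at -0.56 (adjusted p = 0.269). Vav2, also on the list of exchange factors, was at 33.6, 62.5 and 65.8 and 28.4, 15.1 and 26.7 and fell 2.00-fold (SE 0.23 on the log2 scale, adjusted p = 0.00632). Rapgef2, an exchange factor for Rap1, was at 361, 454 and 498 and 294, 215 and 316 and fell 1.59-fold (-0.66 ± 0.20, SE, adjusted p = 0.0362). In each gene the highest 6 mg animal lay below 3 mg replicate 1, the lowest of its group. Of 17 measured exchange factor genes 3 fell and none rose, beside 3.24% of all probe sets lower, with a list median of -0.25. Dock9 is itself among the 15 largest falls, and the list was chosen with earlier results of these data known. Rapgef2 lost its call with arrays centred on their median (adjusted p = 0.0595). The 2 other probe sets of Vav2 stood at -0.62 (adjusted p = 0.0519) and -0.46 (adjusted p = 0.131).

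A list of genes with very long genomic spans held the most members that fell: 7 of 33, or 21.2%, beside 3.24% of all probe sets. The 7 were Nfia, Nfib, Pard3, Ext1, Zfhx3, Fto and Magi3, none rose, and the list median was -0.27. Nfia and Nfib encode nuclear factor I transcription factors that act in lung maturation. Nfia was at 229, 307 and 335 in the 3 mg animals and 151, 100.2 and 147 in the 6 mg animals, against 452, 443 and 371 in isopropyl alcohol (-1.10 ± 0.17, SE, adjusted p = 5.38e-05). Nfib was at 419, 431 and 464 and 291, 229.8 and 232, against 704, 653 and 666 (-0.79 ± 0.14, SE, adjusted p = 0.000221). Both genes stepped down from control to 3 mg to 6 mg with no overlap between the 3 groups. A second probe set of each fell too, Nfia at -0.80 (adjusted p = 0.0298) and Nfib at -0.58 (adjusted p = 0.0301), and a further probe set of Nfia stood at -0.70 (adjusted p = 0.132). Ext1, a polymerase of heparan sulfate chains, was at 132, 114 and 132 and 70.5, 63.6 and 63.9 (-0.88 ± 0.17, SE, adjusted p = 0.000741). Against the shared isopropyl alcohol animals the list median was -0.96 with 6 mg and -0.59 with 3 mg. Within the pair of scan days that held both groups the median of 6 mg minus 3 mg was -0.44, and without 3 mg replicate 3 it was -0.13.

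Others among the 15 largest falls were on none of these lists. Nbas, which acts in transport from the Golgi to the endoplasmic reticulum, was at 32.7, 28.8 and 40.7 in the 3 mg animals and 7.50, 8.10 and 16.9 in the 6 mg animals and fell 2.41-fold (-1.27 ± 0.19, SE, adjusted p = 1.77e-05). Sh3bp4, which acts in endocytosis, was at 51.3, 79.7 and 64.5 and 27.7, 22.3 and 21.7 and fell 2.40-fold (-1.26 ± 0.22, SE, adjusted p = 0.000216). Each of the 6 mg animals was below 30 in both genes, near the low end of the arrays. Myo1e, an unconventional myosin, was at 135, 206 and 211 and 88.7, 57.1 and 84.3 and fell 2.28-fold (-1.19 ± 0.19, SE, adjusted p = 5.38e-05). Tspan5, a tetraspanin, was at 130.4, 230.5 and 208 and 106, 49.9 and 85.0 and fell 2.28-fold (-1.19 ± 0.20, SE, adjusted p = 0.000153), with a second probe set at -0.57 (adjusted p = 0.0389). For Myo1e and Tspan5, 2 of the 3 mg animals lay among the controls and 3 mg replicate 1 lay between them and the 6 mg animals.

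Zdhhc14, a palmitoyltransferase gene, was at 33.8, 34.0 and 35.3 in the 3 mg animals and 21.1, 7.15 and 11.6 in the 6 mg animals, against 63.6, 68.3 and 63.6 in isopropyl alcohol (-1.16 ± 0.18, SE, adjusted p = 6.27e-05). Here the 3 mg animals were nearly equal and lay between the controls and the 6 mg animals. The 6 mg values of Zdhhc14 were low, with replicate 2 close to the offset of 7. Its log2 difference was -0.58 with an offset of 32, and its call was lost on chip B alone (limma, adjusted p = 0.0503). Arl15, an Arf-like GTPase gene, was at 60.0, 100.3 and 116 and 40.5, 36.9 and 34.5, against 144, 228 and 191 (-1.13 ± 0.24, SE, adjusted p = 0.00271). Ankrd44, a regulatory ankyrin repeat subunit of protein phosphatase 6, was at 112, 204 and 258 and 84.2, 54.5 and 86.1 (-1.23 ± 0.23, SE, adjusted p = 0.000424). Ttc28, a tetratricopeptide repeat gene, was at 53.4, 75.4 and 146 and 50.9, 22.5 and 29.3 (-1.25 ± 0.25, SE, adjusted p = 0.00129), and 3 mg replicate 1 was only just above 6 mg replicate 1. For Arl15, Ankrd44 and Ttc28 the 3 mg animals were all below the controls. Mn1, a transcriptional coregulator, was at 55.2, 78.5 and 90.7 and 43.6, 26.9 and 23.0 (-1.24 ± 0.22, SE, adjusted p = 0.000276), and its 3 mg animals lay in the range of the controls or above.

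Veph1, which encodes a protein with a pleckstrin homology domain, had the largest fall at the offset used. It was at 32.05, 43.5 and 83.0 in the 3 mg animals and 25.2, 5.30 and 6.35 in the 6 mg animals, against 73.0, 68.2 and 78.9 in isopropyl alcohol. Its 6 mg replicates 2 and 3 lay under the offset of 7, so the 3.23-fold fall (-1.69 ± 0.36, SE, adjusted p = 0.00271) is understated by it. The rank depended on the offset: with an offset of 32 Veph1 stood at -0.92, Dock9 at -1.20 and Ankrd44 at -1.02. Fam13c was at 66.8, 95.0 and 119.8 and 32.5, 33.2 and 34.5 (-1.28 ± 0.28, SE, adjusted p = 0.00305), with the 6 mg animals nearly equal. Tmem229b was at 95.0, 75.7 and 75.2 and 49.0, 13.6 and 35.8 (-1.28 ± 0.36, SE, adjusted p = 0.0298). Wnt5b, a Wnt ligand, was at 86.6, 96.0 and 76.6 and 50.1, 21.1 and 31.5 (-1.28 ± 0.38, SE, adjusted p = 0.0389). For Tmem229b and Wnt5b the lowest animal was 6 mg replicate 2. Wnt5b stood outside the Wnt list, of whose 17 measured members 2 fell, beside 3.24% of all probe sets lower: Tcf7l2, the transcription factor of the pathway (-0.78 ± 0.20, SE, adjusted p = 0.0123), and Fzd2, a receptor (-0.58 ± 0.17, SE, adjusted p = 0.0389). Fzd2 lost its call with quantile normalization (adjusted p = 0.09), with arrays centred (adjusted p = 0.0662) and with the beta-actin ratio as a covariate (adjusted p = 0.0657). The list median was -0.15, and it was 0.07 on chip B alone.

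**Figure D3:**
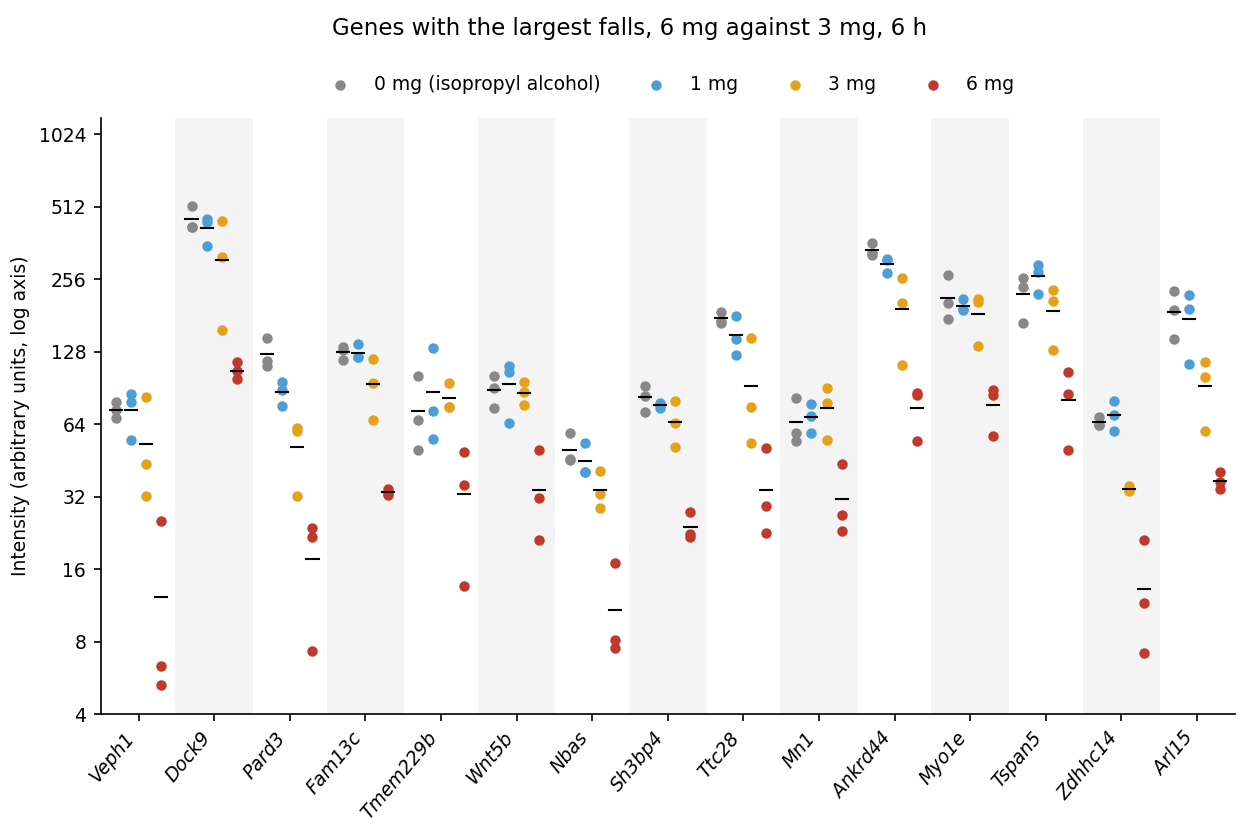
Intensity on a log axis in each animal at 6 h for the 15 genes with the largest falls, with points for animals and a bar for the mean of each dose group of 3 animals. In every gene the 6 mg animals lie below the 3 mg animals, as the choice of genes required. In 12 of the 15 the lowest 3 mg animal is replicate 1.

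Of the 15 falls 9 passed in all 6 fits that left out an animal. Tmem229b and Wnt5b lost theirs in every such fit but that without 6 mg replicate 1, at log2 differences between -1.40 and -0.87 for these 2 genes in the fits where they were lost. Veph1 lost its call without 6 mg replicate 2 (-1.44) and without 3 mg replicate 3, and the latter fit also lost Fam13c, Ttc28 and Arl15 (-1.36 to -0.88 over the 6 genes). With the pair of scan days as a block all 15 passed. Within the pair of scan days that held both groups all 15 were lower at 6 mg. The choice of genes without overlap all but fixed this direction. With 3 mg replicate 3 alone at that dose, Ttc28 stood at -2.00. Of the 15 falls Tmem229b and Wnt5b lost their calls with quantile normalization, and Wnt5b with arrays centred on their median.

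Of 10 measured endothelial and vasoactive genes 1 fell, Ramp2, and of 8 measured endothelial cell markers 1 fell, Emcn, beside 3.24% of all probe sets lower. Ramp2, which encodes the coreceptor of the adrenomedullin receptor on endothelium, was at 1821, 2163 and 1789 in the 3 mg animals and 1212, 861 and 1167 in the 6 mg animals and fell 1.79-fold (-0.84 ± 0.18, SE, adjusted p = 0.00197). Emcn, the endothelial surface protein endomucin, was at 552, 584 and 517 and 457, 405 and 391 and fell 1.31-fold (-0.39 ± 0.12, SE, adjusted p = 0.0486), a call lost with the block (adjusted p = 0.116), with quantile normalization (adjusted p = 0.0543) and with arrays centred (adjusted p = 0.129). The groups did not overlap in either gene. The median of the vasoactive list was -0.25, and -0.11 with the block. The median of the markers was -0.36, and -0.19 without 6 mg replicate 2, and their summed level lay between 6392 and 7447 at 6 mg and between 7330 and 8129 at 3 mg. In bulk tissue fewer cells of a type and less RNA per cell cannot be told apart. No marker passed in the other 16 cell type lists, which had between 1 and 10 measured members, beside 4.31% of all probe sets called. At that share such short lists may well hold no call. All 5 measured skeletal muscle markers lay above 0, with a median of 0.63. Summed alveolar type II markers lay between 21636 and 29014 at 6 mg and between 18208 and 21589 at 3 mg, with only a narrow gap between them. In isopropyl alcohol they lay between 21359 and 22181. Summed ciliated cell markers lay between 859 and 988 at 6 mg and between 991 and 1183 at 3 mg, a narrow gap. Their isopropyl alcohol range, 895 to 1207, spanned most of both groups. Neutrophil markers overlapped, between 1711 and 2396 and between 1192 and 2554. The part of these markers in the differences above was not tested. Hk1, the glycolytic enzyme hexokinase 1, fell 1.79-fold (-0.84 ± 0.21, SE, adjusted p = 0.0108) as the 1 of 20 measured glycolysis and hypoxia genes that passed, beside 3.24% of all probe sets lower.

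The genes named from the lists also depended on single animals. Without 6 mg replicate 2 the calls of Dnajb4, Hspa5, Il33, Procr, Plat, Vav2, Rapgef2, Apex1, Hk1, Tcf7l2, Fzd2, Ramp2 and Emcn were lost, and without 3 mg replicate 2 those of the same genes except Ramp2, with Gclm and Magi3 added. Without 3 mg replicate 3 Dnajb4, Hspa5, Il33, Plat, Magi3, Vav2, Rapgef2, Apex1, Tcf7l2, Fzd2 and Emcn lost theirs, without 6 mg replicate 3 Procr, Plat, Magi3, Apex1, Tcf7l2, Fzd2 and Emcn, and without 3 mg replicate 1 Procr and Emcn. Their log2 differences in those fits lay between -0.89 and 0.77. Nfia, Nfib and Ext1 passed in all 6 fits. The block ended the calls of Il33 (-0.46, adjusted p = 0.0522) and Apex1 (0.45, adjusted p = 0.0642) beside those of Hspa5 and Emcn. Within the pair of scan days that held both groups 1 of 19 genes named from the lists or the changes between times that passed at 6 h passed again, Ext1, and 18 did not, Nfia, Nfib, Gclm, Procr, Ramp2 and Adgrl2 among them, at log2 differences between -1.32 and 0.78.

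The same 2 doses were also compared at 3 h and at 24 h, with other animals (3 per group), and the change of the difference between times was tested directly. From 6 h to 24 h it changed for 23 probe sets, 0.207% of those tested, of which 6 moved up and 17 down (899 with an unadjusted p under 0.05). In terms of genes there were 15, and the 5 with the smallest adjusted p were Adgrl2, Ptprm, Atrnl1, Wif1 and Postn. From 3 h to 6 h it changed for 2 probe sets, 0.018% (979 with an unadjusted p under 0.05), which named Rnf144b and Ppp1r15a. These counts moved with single 6 h animals. They were 104 and 35 without 3 mg replicate 1 and 7 and 1 without 3 mg replicate 2. The count from 3 h to 6 h was 9 without 6 mg replicate 1, and 1 without 6 mg replicate 2, 6 mg replicate 3 or 3 mg replicate 3.

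Adgrl2, an adhesion receptor of the latrophilin family, was at 296, 283 and 334 at 3 mg and 161, 148 and 181 at 6 mg after 6 h (-0.87 ± 0.15, SE, adjusted p = 0.000221). After 24 h it was at 304, 318 and 276 at 3 mg and 314, 383 and 400.1 at 6 mg (0.28 ± 0.15, SE). The 6 mg animals thus lay below all 3 mg animals at 6 h, and at 24 h the groups overlapped. A second probe set of Adgrl2 stood at -0.79 at 6 h (adjusted p = 0.246). The difference moved by 1.15 ± 0.22 (SE, adjusted p = 0.00593). Nbas and Myo1e, described above as lower at 6 h, had differences close to 0 at 24 h, with an SE of 0.19 each. For Nbas the change between the times was 1.27 ± 0.26 (SE, adjusted p = 0.0122), and for Myo1e it was 1.18 ± 0.26 (SE, adjusted p = 0.0255).

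Other genes differed between the doses later. Wif1, an inhibitor of Wnt ligands, was at 521, 288 and 367 and 484, 388 and 519 after 6 h with overlap, and at 366, 305 and 575 and 189, 182 and 150.3 after 24 h without it. Its difference moved from 0.28 ± 0.20 to -1.17 ± 0.20 (SE), a change of -1.46 ± 0.28 (adjusted p = 0.00593). Postn, the matrix protein periostin, was at 904, 1079 and 1107 and 509, 582 and 568 after 24 h, with a change of -1.21 ± 0.24 (SE, adjusted p = 0.00803). In Atrnl1, an attractin-like gene, the change was -1.13 ± 0.22 (SE, adjusted p = 0.00593). Ptprm encodes a receptor tyrosine phosphatase at cell contacts. After 6 h it was low at both doses, at 83.1, 43.6 and 105 and 178, 61.0 and 96.0 against 262, 274 and 293 in isopropyl alcohol, and after 24 h it was at 231, 205 and 188 at 3 mg and 70.3, 114 and 56.8 at 6 mg. The change of its difference was -1.80 ± 0.34 (SE, adjusted p = 0.00593).

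Gclm and Esm1, both higher with 6 mg at 6 h, had differences of -0.26 ± 0.16 and -0.87 ± 0.32 (SE) at 24 h. Neither difference at 24 h passed (limma, adjusted p = 0.659 for Gclm and 0.218 for Esm1). Gclm was at 131, 105 and 120.3 and 101, 121 and 78.6 at 24 h, and its change of -0.95 ± 0.22 (SE, adjusted p = 0.0363) passed in 9 of 19 alternatives and was lost in others, every fit without an animal other than 3 mg replicate 1 among them. Esm1 was at 35.6, 53.3 and 58.7 and 14.8, 33.8 and 22.6 at 24 h, a change of -2.07 ± 0.45 (SE, adjusted p = 0.018). With the pair of scan days as a block the changes of Adgrl2 (adjusted p = 0.077), Ptprm (adjusted p = 0.0842), Esm1 (adjusted p = 0.0934), Nbas (adjusted p = 0.202) and Gclm (adjusted p = 0.253) lost their calls. Those of Atrnl1, Wif1, Postn and Myo1e kept theirs with the block. Over all alternatives Myo1e passed in 13 of 19, Nbas in 11 of 18, Esm1 in 12 of 18, and Wif1 and Postn in 17 of 19 each. Myo1e and Nbas were lost with an offset of 32 and on chip A alone, Myo1e and Esm1 with quantile normalization, Wif1 on chip A alone, and Nbas, Esm1 and Postn on chip B alone. Without 3 mg replicate 2 the calls of Ptprm, Wif1, Postn, Myo1e and Esm1 were lost, and without 3 mg replicate 3 those of Esm1, Nbas and Myo1e. Without 6 mg replicate 2 Nbas and Myo1e lost theirs, and without 6 mg replicate 3 Esm1 did. Without 6 mg replicate 1 Ptprm and Nbas lost theirs.

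Ppp1r15a encodes the subunit that directs a phosphatase to the initiation factor eIF2-alpha and so ends the block of translation in the integrated stress response. At 3 h it was at 191, 259 and 190.5 with 3 mg and 618, 494 and 1429 with 6 mg (1.81 ± 0.21, SE). At 6 h it was at 221, 296 and 216 and 305, 333 and 297 (0.34 ± 0.21, SE). The 6 mg animals were spread widely at 3 h and lay close together at 6 h, just above the highest 3 mg animal. The change was -1.47 ± 0.30 (SE, adjusted p = 0.0489), and it passed in 9 of 19 alternatives, and among others not with the block (adjusted p = 0.0866) nor without 6 mg replicate 2 or 3 or 3 mg replicate 2 or 3. Rnf144b, a ubiquitin ligase that p53 induces in human cells, was at 304, 265 and 219 and 192, 146 and 121 at 3 h and at 232, 202 and 196 and 261, 276 and 296 at 6 h. Its 6 mg animals lay below the 3 mg animals at 3 h and above them at 6 h, a change of 1.14 ± 0.19 (SE, adjusted p = 0.00104) that passed in 18 of 19 alternatives, chip B alone being the exception.

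**Figure D4:**
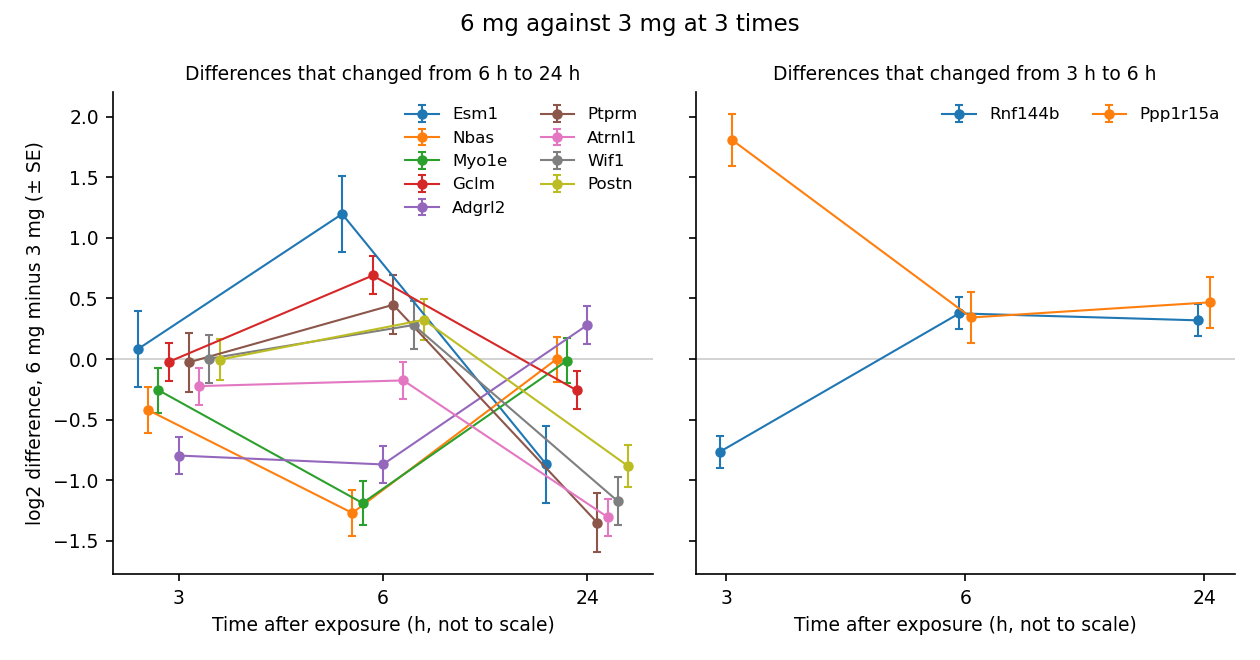
Log2 difference of 6 mg minus 3 mg with its SE at 3, 6 and 24 h (3 animals per dose and time) for the 9 named genes whose difference changed from 6 h to 24 h on the left and the 2 whose difference changed from 3 h to 6 h on the right. Adgrl2, Nbas and Myo1e return to about 0 or above at 24 h, Esm1 and Gclm lie above 0 only at 6 h by more than the SE, and Rnf144b crosses from below to above 0.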

How the data were processed

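Lung RNA of 77 rats in 25 groups was measured on 154 arrays, 2 per animal. The authors deposited linear intensities per probe set. The values show a 2% trimmed mean between 149.9 and 150 on every array, and the chip type is that of the file headers. The program that summarised the probes is not stated there. Depth has no meaning for arrays, and 3 animals per group limit the precision. From the 15923 probe sets, 57 controls were left out, log2(intensity + 7) was averaged over the chips of an animal, and the lowest 30% by mean were left out, which left 11106. A mean per group was fitted over all 25 groups with limma 3.58.1 in R 4.3.3, and p-values were adjusted by Benjamini-Hochberg over all probe sets at 0.05. Gene names came from the platform annotation, updated by gene ID through RefSeq: 12783 probe sets had 1 gene, 312 several and 2771 none, and a gene was represented by its brightest probe set.

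Named genes were the 15 largest rises and 15 largest falls past the threshold with no overlap of the animals, per list up to 4 that passed, by smallest adjusted p, or else the smallest p, and the 5 genes of smallest adjusted p per change between times; genes added after their values were seen are marked in the text. The members and lists were chosen with earlier results of these data known. Promoters came from RefSeq on GRCr8. Other offsets, filters, scalings, chips, array weights, scan days as a block, RNA integrity covariates, fewer groups and leaving out each animal were tried as alternatives, the GAPDH covariate after seeing the data. The code was tested on simulated data.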

Additional observations from a re-analysis of the deposited data

Results flagged for a closer look

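The difference between 6 mg and 3 mg changed from 6 h to 24 h for 9 of the genes named above, by the interaction term of the limma fit over all groups. It moved up for Nbas by 1.27 ± 0.26 (SE), for Myo1e by 1.18 ± 0.26 (SE) and for Adgrl2 by 1.15 ± 0.22 (SE). It moved down for Esm1 by -2.07 ± 0.45 (SE), for Ptprm by -1.80 ± 0.34 (SE) and for Wif1 by -1.46 ± 0.28 (SE). For Postn the change was -1.21 ± 0.24 (SE), for Atrnl1 -1.13 ± 0.22 (SE) and for Gclm -0.95 ± 0.22 (SE).

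From 3 h to 6 h the same term gave 1.14 ± 0.19 (SE) for Rnf144b and -1.47 ± 0.30 (SE) for Ppp1r15a. The animals differed between the times, with 3 per dose and time. Of these 11 changes that of Atrnl1 passed in every alternative tried. Groups held 3 animals, so no single animal was tested as standing apart.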

How the results depend on the processing

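Against 479 probe sets (119 higher and 360 lower), the count was 307 on chip B alone (59 and 248), 1938 with array weights (766 and 1172), 39 with only the groups at 6 h (10 and 29), 0 with only these 2 groups (0 and 0, limma, 2086 with an unadjusted p under 0.05) and 89 within the pair of scan days that holds both groups (21 and 68). Leaving out an animal gave between 109 and 683, between 10 and 186 higher and between 99 and 497 lower. The change from 6 h to 24 h, 23 probe sets, counted 15 with an offset of 32, 15 with quantile normalization, 14 on chip A, 15 on chip B, 445 with array weights, 7 with the pair of scan days as a block, 36 with the beta-actin ratio as a covariate, and between 7 and 104 without an animal. The change from 3 h to 6 h, 2 probe sets, counted 1 without the filter, 1 with quantile normalization, 1 with arrays centred, 9 on chip A, 0 on chip B (limma, 850 with an unadjusted p under 0.05), 75 with array weights, and between 1 and 35 without an animal. No named gene reversed its direction where it was called, which the choice of genes without overlap made likely for the largest rises and falls. No paired analysis was possible because the labels number the chips of an animal and no number pairs animals across groups. The number of animals and signal near background limit what can be seen.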
